A study of Mus musculus with 12 samples.

Results

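NRF2, the transcription factor encoded by Nfe2l2, is the main switch of the cell's answer to oxidants and electrophiles. In unstressed cells the adaptor KEAP1 holds it in the cytoplasm and presents it to a ubiquitin ligase for destruction. Reactive molecules modify cysteines of KEAP1, NRF2 then escapes, pairs with small MAF proteins and binds antioxidant response elements near genes for glutathione synthesis, quinone reduction, haem breakdown and the thioredoxin system. In liver these genes are known as part of the defence against reactive drug metabolites. Described here is how open the chromatin was at 9 genes of this pathway, namely the factor Nfe2l2, its inhibitor Keap1, and 7 target genes, Nqo1, Gclc, Gclm, Hmox1, Txnrd1, Srxn1 and Slc7a11. They were found by symbol in a promoter table of 43511 rows and 25124 symbols. All 9 were present, and all 9 passed the filter on low counts. Where a symbol had several rows, the row with the highest mean level was taken.

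Chromatin accessibility was measured by ATAC-seq, in which a transposase inserts sequencing adaptors into open DNA, in whole liver. The mice were wild-type C57BL/6N males, 19 to 20 weeks old. They were gavaged for 4 days with 100 mg/kg PCN (pregnenolone 16α-carbonitrile, which activates the pregnane X receptor of mice, a sensor of foreign chemicals), with 10 mg/kg atorvastatin (an inhibitor of cholesterol synthesis) or, as control, with distilled water, and all were fasted for 12 h. Each group had 4 libraries, numbered here 1 to 4 within the group. The labels give 9 to 10 mice per group and do not say whether a library is 1 mouse, so p-values measure only the spread between these libraries, which may be partly technical. Since the tissue was not sorted, a change in the share of cells with an open site and a change in how often it is open per cell cannot be told apart.

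Levels are given in CPM, counts scaled to library size after TMM scaling. The promoter totals were 4872850.5 to 10021771.5 counts in PCN, 4218336.5 to 15336000.5 in atorvastatin and 1679054 to 10493197 in control libraries. Atorvastatin 3 and control 3 stood apart from the rest, with a median correlation of promoter levels with the other libraries of 0.789 and 0.776, against 0.931 to 0.971 for the remaining 10 libraries. Results that rest on these 2 libraries are given with and without them. The 8 hepatocyte marker promoters summed to 269 to 402 CPM in PCN, 217 to 398 in atorvastatin and 169 to 340 in control libraries, with a median gene at 32.8 CPM. Without control 3 and atorvastatin 3 the control range was 216 to 340 CPM. For markers of other liver cell types, and of neurons, the median gene lay between 5.23 and 9.68 CPM, and none was at 0 throughout. The summed stellate cell markers were 33.3 to 55 CPM in PCN, 35.3 to 68.6 in atorvastatin and 51.2 to 87.5 in control libraries. Without control 3 and atorvastatin 3 the control range was 51.2 to 62.8 CPM. The medians of these sums were 44.5, 55.5 and 60.5 CPM in the same order of groups. Neuron marker sums also rose in this order, at 22.9, 24.7 and 34.6 CPM, as did those of Kupffer cell, endothelial, lymphocyte and neutrophil markers. Cholangiocyte marker sums fell, at 47, 44 and 42.4 CPM. The part of these differences in the values below was not tested.

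The promoter sequences that carry a candidate NRF2 motif are shown first, as context for the comparisons at these genes. The count table gives no coordinates or widths for its promoters, so the windows printed may differ from the counted ones. The Txnrd1 windows could not be tied to its rows in that table. RefSeq promoter windows on GRCm38.p6 were at hand for 7 of the 9 genes, not for Gclc or Hmox1, and 3 windows belong to Txnrd1. The core of the antioxidant response element, TGACNNNGC, where N is any base, was searched on both strands. It matched in 4 of the 9 windows of 300 bases, against 12.4% of all 32817 such windows. The matches lay at bases -240 to -232 before the start of Nfe2l2, -134 to -126 of Gclm and -92 to -84 of the second Txnrd1 window. The match of Srxn1 lay after its start, at bases 29 to 37. The related TRE motif TGANTCA had 2 matches in Srxn1, at -102 to -96 and -45 to -39, in no other window of the 9 and in 7.81% of all windows. Both motifs begin with TGA and can share bases, but no match here shared a base with another. The 250 bases before each start are printed in the direction of the gene, with matches in capitals. They span chr2:75704664-75704913 on the minus strand for Nfe2l2, chr3:122245307-122245556 on the plus strand for Gclm, chr10:82858956-82859205 on the plus strand for Txnrd1 and chr2:152105274-152105523 on the plus strand for Srxn1. The capitals mark the response element core in the first 3 and the TRE motif in Srxn1. A match is a run of letters and does not show that a factor binds there.
Nfe2l2: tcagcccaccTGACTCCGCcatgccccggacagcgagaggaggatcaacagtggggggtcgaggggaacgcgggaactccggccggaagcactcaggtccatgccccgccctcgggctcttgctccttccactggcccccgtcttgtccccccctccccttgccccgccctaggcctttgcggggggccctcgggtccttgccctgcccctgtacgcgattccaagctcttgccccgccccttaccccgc
Gclm: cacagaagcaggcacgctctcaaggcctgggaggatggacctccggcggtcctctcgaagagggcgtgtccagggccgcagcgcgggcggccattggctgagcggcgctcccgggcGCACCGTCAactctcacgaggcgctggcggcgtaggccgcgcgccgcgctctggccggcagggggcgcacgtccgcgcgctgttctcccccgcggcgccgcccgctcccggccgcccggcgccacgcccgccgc
Txnrd1: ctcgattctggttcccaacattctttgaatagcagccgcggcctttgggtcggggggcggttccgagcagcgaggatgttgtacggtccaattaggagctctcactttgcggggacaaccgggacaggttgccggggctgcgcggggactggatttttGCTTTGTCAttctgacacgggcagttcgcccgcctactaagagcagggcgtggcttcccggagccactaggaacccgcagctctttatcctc
Srxn1: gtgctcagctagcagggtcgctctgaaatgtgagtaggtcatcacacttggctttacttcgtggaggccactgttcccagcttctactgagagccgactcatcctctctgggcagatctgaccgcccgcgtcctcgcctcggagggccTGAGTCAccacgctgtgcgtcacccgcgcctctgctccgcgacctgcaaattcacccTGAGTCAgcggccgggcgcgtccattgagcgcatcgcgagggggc

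These windows differed in base composition. G and C made up 70.4% of the 250 bases at Nfe2l2, 78.4% at Gclm, 59.6% at this Txnrd1 window and 63.2% at Srxn1, against a median of 52.4% over all windows. Slc7a11, with no match, had 43.2% and 2 CpG dinucleotides, against 41 at Gclm, 18 at Nfe2l2 and a median of 6 over all windows. Whether GC content moves with the counts was not tested.

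At none of the 9 promoters did a difference between groups pass the test. By edgeR (quasi-likelihood F, p-values adjusted over 41908 promoter rows after Benjamini and Hochberg), 0 of the 9 passed the threshold of 0.05 in PCN against control, atorvastatin against control or PCN against atorvastatin. The same held for the whole table, with 0% of promoters called in each comparison. Unadjusted p was under 0.05 for 1572, 807 and 306 rows in the 3 comparisons and for 0 of the 9 genes in each. DESeq2 called 0, 1 and 0 rows, none of them a row of these genes. The comparisons share libraries and are not independent of each other.

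The factor itself had an open promoter in every library. At Nfe2l2 (chromosome 2, 75675513 to 75704663, mm10) the PCN libraries had 85.6, 126, 156 and 157 CPM, the atorvastatin libraries 82.2, 148, 67 and 147 CPM and the control libraries 74.3, 107, 96.1 and 131 CPM. The means were 131 ± 33.8 CPM in PCN, 111 ± 42.4 in atorvastatin and 102 ± 23.5 in control (SD, n = 4 each). The order of these means was not resolved, since the groups overlapped throughout. The log2 fold change was 0.37 ± 0.32 (SE) for PCN against control, with an approximate 95% interval of -0.26 to 1 and an edgeR adjusted p of 0.92, and 0.13 ± 0.32 for atorvastatin against control. With loess offsets, a scaling that varies with promoter level, the PCN against control value was 0.07. The other transcript row of Nfe2l2 held identical counts.

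Keap1, the inhibitor (chromosome 9, 21229730 to 21239332), had 34.9, 42.1, 52.4 and 45.1 CPM in PCN libraries, 31.7, 51.6, 22.5 and 49.9 CPM in atorvastatin libraries and 37.3, 44.1, 17.5 and 35.8 CPM in control libraries. All 4 PCN libraries lay above the control mean of 33.7 ± 11.3 CPM, but within the control range except for libraries 3 and 4. The lowest values of all were those of control 3 and atorvastatin 3. PCN against control gave a log2 fold change of 0.36 ± 0.28 (edgeR adjusted p 0.92), and 0.16 without these 2 libraries. Atorvastatin against control gave 0.20 ± 0.28, and 0.19 without them. The 4 transcript rows of Keap1 held identical counts, so they are a single measurement.

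Glutathione synthesis starts with glutamate-cysteine ligase, made of the catalytic subunit Gclc and the modifier subunit Gclm, and at both promoters the group means differed by less than the SD of the control libraries. Gclc (chromosome 9, 77754535 to 77794489) had 35.6, 39.1, 39.8 and 30 CPM in PCN, 26.7, 41.7, 19.7 and 32.2 in atorvastatin and 31.4, 42.2, 10.4 and 42.1 in control libraries. Control 3, at 26 counts, was far below the other control libraries, which overlapped both treated groups. For PCN against control the log2 fold change of Gclc was 0.19 ± 0.30 with all libraries and -0.06 ± 0.19 without control 3 and atorvastatin 3. It was -0.08 without control 3 alone and 0.20 without atorvastatin 3 alone, so that its sign rests on control 3.

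Gclm (chromosome 3, 122245487 to 122267215) had 55.3, 66.9, 77.7 and 61.2 CPM in PCN, 57.2, 85.4, 46.9 and 68.4 in atorvastatin and 52.7, 66.3, 75 and 66.9 in control libraries. The group means were 65.3 ± 9.54, 64.5 ± 16.5 and 65.2 ± 9.22 CPM (SD, n = 4 each), closer together than the libraries of any group. Without atorvastatin 3 and control 3 the means were 65.3 CPM in PCN, 70.3 in atorvastatin and 62 in control, and the atorvastatin against control value was 0.20, against -0.01 with all libraries. Its interval for PCN against control ran from -0.48 to 0.49 on the log2 scale, and for atorvastatin against control from -0.49 to 0.48, so changes outside these bounds are not covered by them.

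Cystine, the precursor that feeds this synthesis, enters cells through xCT, the transporter encoded by Slc7a11 (chromosome 3, 50364936 to 50499087). Its promoter had 7, 4.21, 2.64 and 0 CPM in PCN, 6.64, 2.35, 19.7 and 3.26 in atorvastatin and 7.27, 5.28, 17.5 and 3.14 in control libraries. The 0 was PCN 4, where 3 counts would have been 0.621 CPM, and the high values were atorvastatin 3 and control 3. All 4 PCN libraries were below the control mean of 8.31 ± 6.38 CPM. The log2 fold change of -1.23 ± 0.80 for PCN against control had an interval of -2.79 to 0.33 and an edgeR adjusted p of 0.92. Without atorvastatin 3 and control 3 it was -0.62 ± 0.56, and the atorvastatin value moved to -0.49, against -0.06 with all libraries.

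Nqo1, which reduces quinones with both electrons at once, had a narrow range (chromosome 8, 107388225 to 107403205). The PCN libraries had 15.7, 16.3, 20.1 and 15.5 CPM, the atorvastatin libraries 15.7, 14.7, 20.5 and 16.3 CPM and the control libraries 15, 17.6, 12 and 17.6 CPM. The means were 16.9 ± 2.15, 16.8 ± 2.55 and 15.5 ± 2.69 CPM (SD, n = 4 each), and the groups overlapped. Its log2 fold changes were 0.13 ± 0.25 for PCN and 0.11 ± 0.24 for atorvastatin, each against control. The lowest library was control 3 and the highest atorvastatin 3, and without them these values were 0.05 for PCN and -0.09 for atorvastatin.

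Hmox1, which opens the haem ring and is a classic oxidative stress gene, also overlapped between groups (chromosome 8, 75093618 to 75100593). It had 20.4, 21.5, 15.1 and 28.1 CPM in PCN, 20.2, 24.4, 17.8 and 24.9 in atorvastatin and 27.6, 24.5, 7.98 and 21.7 in control libraries. Control 3 was lowest, at 20 counts. The PCN against control value was 0.02 ± 0.28 with all libraries and -0.25 ± 0.18 without control 3 and atorvastatin 3, and neither passed the test (edgeR adjusted p 1 and 0.9).

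In the thioredoxin system the 2 genes had PCN against control values on opposite sides of 0. Txnrd1, the cytosolic thioredoxin reductase (chromosome 10, 82833951 to 82897724), had 44.6, 56.9, 52.1 and 56.1 CPM in PCN, 41, 68.3, 26.3 and 54.3 in atorvastatin and 34.4, 43.1, 58.6 and 33 in control libraries. Control 3 was the highest control and atorvastatin 3 the lowest library of all, while the 4 PCN libraries lay above the other 3 controls. The log2 fold change was 0.31 ± 0.27 for PCN and 0.18 ± 0.27 for atorvastatin, each against control. Without those 2 libraries the values were 0.50 ± 0.22 (unadjusted p 0.023, edgeR adjusted p 0.9) for PCN and 0.57 ± 0.23 (unadjusted p 0.015, edgeR adjusted p 0.91) for atorvastatin. Of the 4 Txnrd1 rows, 2 held identical counts and another gave almost the same values. The last was weak, with 2.58 to 5.98 CPM in PCN, 2 to 14 in atorvastatin and 0.798 to 6.91 in control libraries.

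Srxn1 encodes sulfiredoxin, which restores overoxidised peroxiredoxins (chromosome 2, 152105524 to 152111376). It had 26, 26.2, 25 and 25.9 CPM in PCN, 33.6, 29.8, 29.4 and 32.9 in atorvastatin and 24.6, 30, 43.5 and 32.7 in control libraries. The PCN libraries were tightly grouped and all below every atorvastatin library, while 1 control lay below them. This was the sole case among the 9 genes and 3 comparisons in which groups did not overlap. PCN against atorvastatin gave -0.29 ± 0.20 with all libraries and -0.31 ± 0.17 without atorvastatin 3 and control 3 (edgeR adjusted p 1 in both). PCN against control gave -0.33 ± 0.20 (adjusted p 0.92), and -0.14 without control 3, the highest library, and atorvastatin 3.

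**Figure D1:**
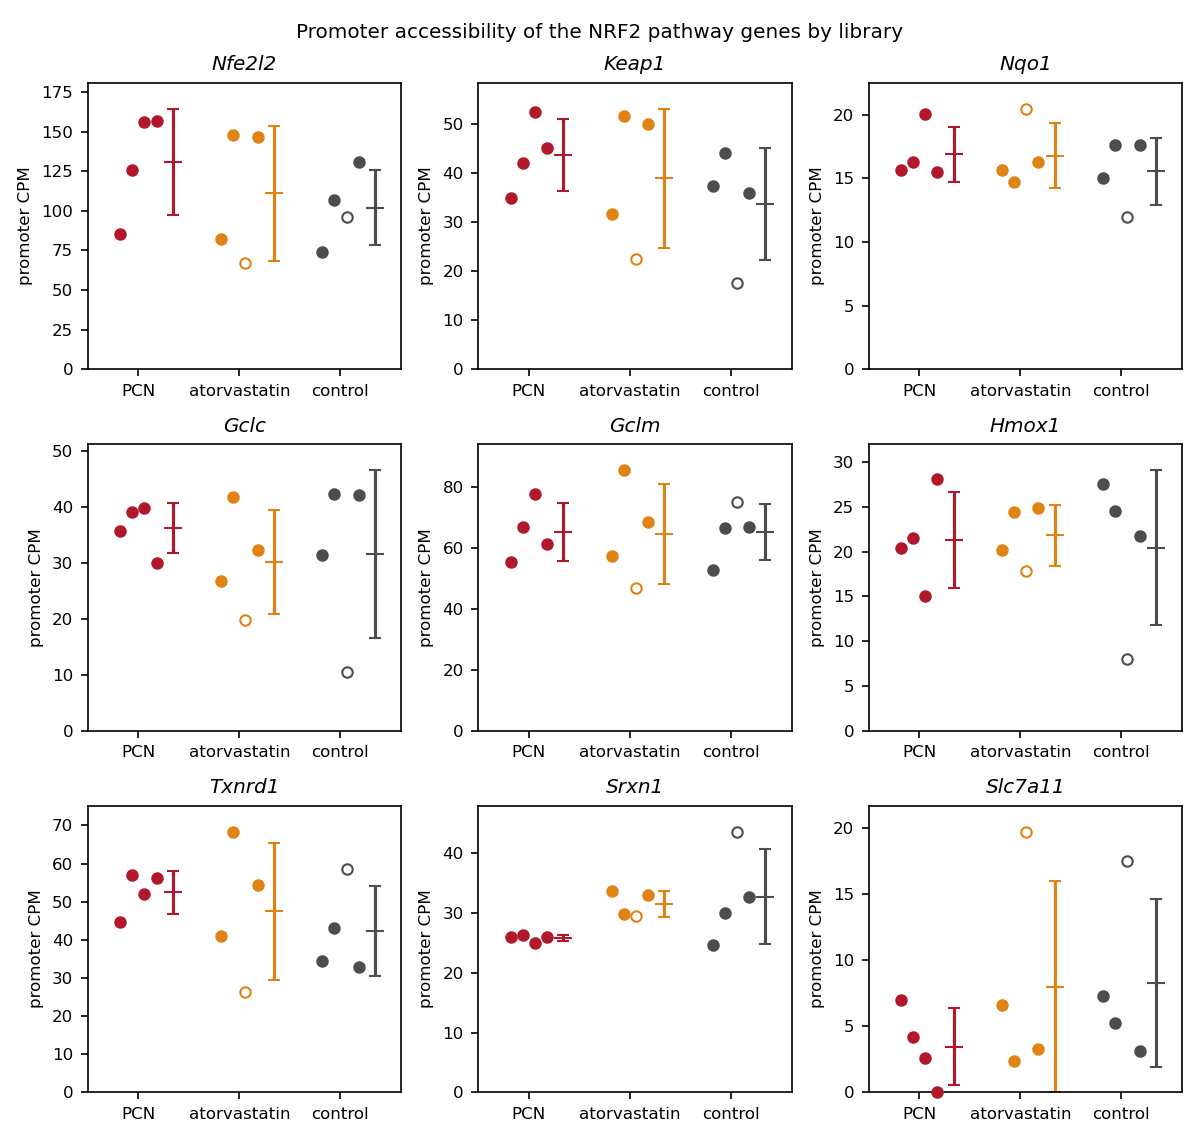
Promoter accessibility in TMM-scaled CPM (y axis, linear from 0) of the 9 genes in each library, with PCN, atorvastatin and control libraries in order 1 to 4 and the mean with SD beside them (n = 4 each, lower bar cut at 0). Open circles are atorvastatin 3 and control 3, which hold the extreme values of several genes, such as 19.7 and 17.5 CPM at Slc7a11, and the groups overlap except for Srxn1 between PCN and atorvastatin.

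Read against all genes, the counts were as follows. With 1 promoter per symbol (24602 tested), all 4 PCN libraries lay above all 4 controls at 1.97% of symbols and below them at 1.71%, and at 0 of the 9 genes in either direction. In the atorvastatin against control comparison these shares were 0.528% and 0.532%, again with 0 of the 9. For PCN against atorvastatin they were 0.309% above and 0.244% below, with Srxn1 as 1 of 9 below. The log2 fold change was above 0 at 7 of the 9 genes for PCN against control, with a median of 0.13, against 47.8% of all symbols and a median of -0.02. Without control 3 and atorvastatin 3 it was above 0 at 5 of the 9, with a median of 0.05, against 44.6% of all symbols and a median of -0.05. Between atorvastatin and control 5 of 9 were above 0, against 56.8% of all symbols, with medians of 0.07 for the genes and 0.05 for all symbols. For PCN against atorvastatin 6 of 9 were above 0, against 44.4% of all symbols, and without those 2 libraries 3 of 9, against 53.6%. The atorvastatin against control count was 5 of 9 without them too, against 44% of all symbols, with medians of 0.17 for the genes and -0.06 for all symbols. The part of promoter level in these shares was not tested.

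**Figure D2:**
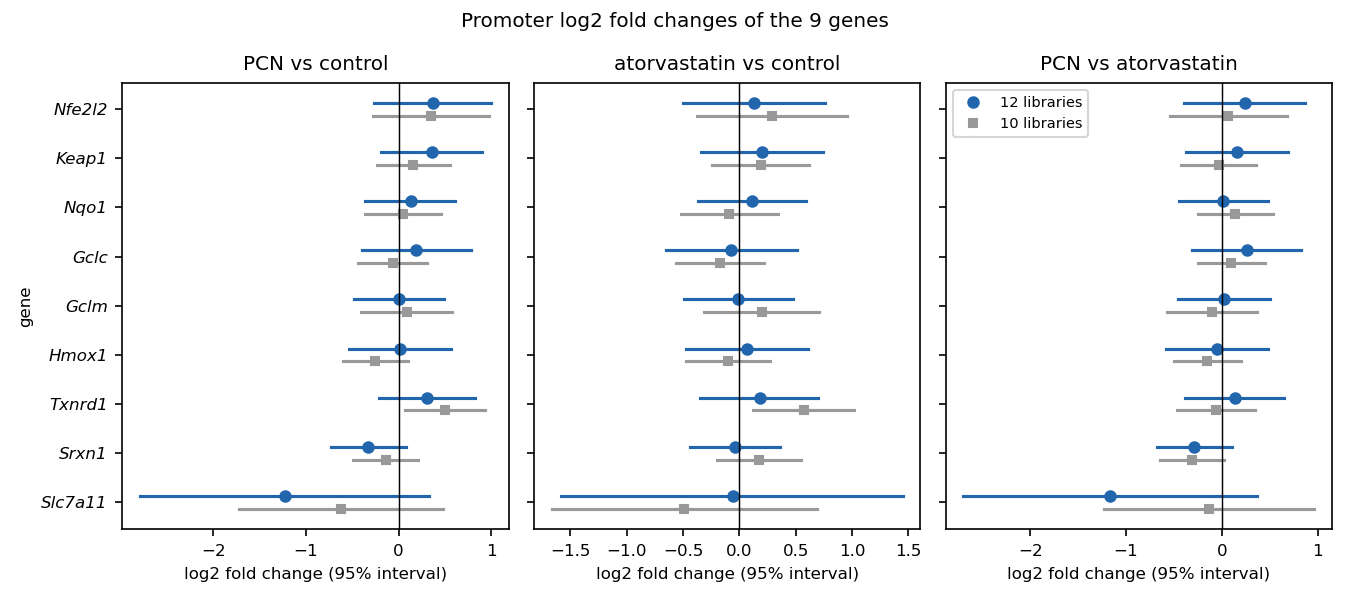
Promoter log2 fold changes of the 9 genes with approximate 95% intervals (x axis, own scale in each panel) in PCN against control, atorvastatin against control and PCN against atorvastatin, from all 12 libraries (blue) and from the 10 left without control 3 and atorvastatin 3 (grey). With all 12 libraries every interval includes 0, and with 10 libraries only those of Txnrd1 against control do not, at 0.50 for PCN and 0.57 for atorvastatin.

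The 9 genes did not rise and fall as a unit across libraries. Over the 12 libraries Pearson's r of log2 CPM was 0.70 between Nfe2l2 and Keap1, and 0.80 over the 10 libraries. Between Nfe2l2 and Gclm it was 0.77, and 0.79 over 10. Keap1 and Gclc had 0.87 over 12 but 0.41 over 10, and Keap1 and Hmox1 had 0.70 over 12 but -0.02 over 10, so both rest on the 2 libraries that stood apart. Slc7a11 had values of -0.76 over 12 and -0.69 over 10 with Nfe2l2. Slc7a11 lay at 0 to 19.7 CPM over the 12 libraries, where the median neuron marker gene lay at 7.47 CPM. These values are descriptions over libraries that share scaling and differ in depth. The libraries also differed in how far counts gathered at strong promoters. The top 10% of promoters by mean level held from 23% of counts in atorvastatin 3 to 36.8% in PCN 3. Nfe2l2 had 67 CPM in atorvastatin 3 and 156 CPM in PCN 3. The part of this share in the values of r in this paragraph was not tested. By the mean of the standardised levels of the 9 genes, the promoters of other genes with the most similar course over 12 libraries were Rasal2 (r 0.964), 2810025M15Rik (0.96), Zc3h6 (0.953), Mgat2 (0.946) and Rpl36al (0.943), of 24593 compared. Over 10 libraries they were Jtb (0.969), Itpr1 (0.968), Bbof1 (0.954), Tut7 (0.952) and Mgat2 (0.95). Of these, Mgat2 alone was in both lists of 5.

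The wider pathway was followed at 63 further genes in 6 lists, all of them tested. None was called in any comparison. For PCN against control 47 of the 63 had a log2 fold change above 0, with a median of 0.24 (51 and 0.20 without control 3 and atorvastatin 3). For atorvastatin against control 45 were above 0, with a median of 0.07 (51 and 0.18 without them), and for PCN against atorvastatin 47, with a median of 0.12 (38 and 0.02 without them). Promoters of all symbols had medians of -0.02, 0.05 and -0.04 in these comparisons, with 47.8%, 56.8% and 44.4% above 0. Without the 2 libraries 44.6%, 44% and 53.6% were above 0, with medians of -0.05, -0.06 and 0.02. The median level over all symbols was 12.7 CPM, and most promoters of the lists lay above it. The part of promoter level in these values was not tested.

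Among regulators and partners of NRF2, 14 of 15 promoters were above 0 for PCN against control, with a median of 0.26, and 0 of 15 passed the test. Maff, a small MAF partner of NRF2, had 45.2 ± 4.51 CPM in PCN and 32.9 ± 3.99 in control libraries (SD, n = 4 each), with no overlap, and a log2 fold change of 0.45 ± 0.22 (edgeR adjusted p 0.92). Mafg, another small MAF, also had no overlap, at 0.46 ± 0.26 (edgeR adjusted p 0.92). Bach2, a repressor that competes for the same elements, was the exception below 0, at -0.25 ± 0.74, and -0.62 without control 3 and atorvastatin 3, with 3.38 ± 1.70 CPM in PCN and 3.92 ± 3.12 in control libraries. In atorvastatin against control Btrc, which helps degrade NRF2, had the lowest p above 0, at 0.29 ± 0.23 (0.25 without the 2 libraries), and Nfe2l1, a factor related to NRF2, the lowest below 0, at -0.11 ± 0.31, which turned to 0.22 without them. Neither passed the test (edgeR adjusted p 1).

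Among 8 genes of thioredoxin and peroxide removal, 7 were above 0 for PCN against control, with a median of 0.32, and 0 passed. Prdx1, a peroxiredoxin, had 35 ± 1.12 CPM in PCN and 22.8 ± 11.7 in control libraries without overlap, with a log2 fold change of 0.60 ± 0.31 that was 0.32 without the 2 libraries (edgeR adjusted p 0.92 with all). Prdx1, Mafg and Maff were the 3 of the 63 genes whose PCN libraries all lay above all controls, and 0 of 63 lay below, against 1.97% and 1.71% of all symbols. Sod2, the mitochondrial superoxide dismutase, had 70.6 ± 15.3 CPM in atorvastatin and 51.6 ± 17.9 in control libraries, at 0.46 ± 0.27 for this comparison (edgeR adjusted p 1).

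Among 14 genes of glutathione use and conjugation, 9 were above 0 for PCN against control, with a median of 0.28. Mgst1, a microsomal glutathione transferase, had 57.1 ± 8.63 CPM in PCN and 42.2 ± 7.02 in control libraries, at 0.45 ± 0.25 (edgeR adjusted p 0.92), and Gstm3, a cytosolic one, 8.11 ± 1.42 in PCN and 10.9 ± 1.68 in control libraries, at -0.42 ± 0.39. The Gsta and Gstm families hold similar copies, so counts may be shared among them. The 6 genes of NADPH supply, the reducing power of these enzymes, had a median of 0.12, with Taldo1 of the pentose phosphate pathway at 0.58 ± 0.28 (unadjusted p 0.046, edgeR adjusted p 0.92, and 0.35 without the 2 libraries).

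Among 14 genes of quinone, aldehyde and haem handling, 10 were above 0 for PCN against control, with a median of 0.18. Aldh1a1, an aldehyde dehydrogenase, had 21 ± 5.72 CPM in PCN and 14.8 ± 3.45 in control libraries, at 0.53 ± 0.30, and Akr1b7, an aldo-keto reductase, 12.8 ± 2.75 in PCN and 16.6 ± 3.27 in control libraries, at -0.36 ± 0.28 (edgeR adjusted p 0.92 for both). Of 6 genes of export and glucuronidation, 3 were above 0. Abcc2, the canalicular export pump of conjugates, had 26.9 ± 5.42 CPM in PCN and 17.2 ± 5.81 in control libraries. Its log2 fold change of 0.65 ± 0.27 had an unadjusted p of 0.024 and an edgeR adjusted p of 0.92. Without control 3 and atorvastatin 3 it was 0.49. Abcc2 and Taldo1 were the 2 of 63 with unadjusted p under 0.05 in this comparison, in which 3.75% of all promoter rows had such a p, and there was none in the other 2 comparisons.

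The remaining genes with the lowest p on their side of 0 for PCN against control lay close to 0. They were Sod1, a cytosolic superoxide dismutase, at -0.01 ± 0.28, G6pdx, which starts the pentose phosphate pathway, at -0.04 ± 0.32, and Abcc4, an export pump, at -0.15 ± 0.28. Without control 3 and atorvastatin 3 these values were 0.13, 0.03 and -0.18.

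In atorvastatin against control the genes above 0 were Gsta2 at 0.33 ± 0.22, Taldo1 at 0.49 ± 0.27, Cbr3, a carbonyl reductase, at 0.41 ± 0.29 and Ugt1a1, which glucuronidates bilirubin, at 0.41 ± 0.27. Without control 3 and atorvastatin 3 they were at 0.19, 0.29, 0.01 and 0.28. Those below 0 were Gstm3 at -0.40 ± 0.39, Sod1 at -0.23 ± 0.28, G6pdx at -0.32 ± 0.32, Blvra, a biliverdin reductase, at -0.34 ± 0.26 and Abcc4 at -0.19 ± 0.28. Without the 2 libraries Gstm3 was at -0.35, while Sod1, G6pdx, Blvra and Abcc4 turned to 0.18, 0.05, 0.11 and 0.01. None passed the test (edgeR adjusted p 1).

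In PCN against atorvastatin the genes above 0 were Mgst1 at 0.36 ± 0.24, Sesn1, a sestrin, at 0.32 ± 0.29, G6pdx at 0.28 ± 0.31, Aldh1a1 at 0.57 ± 0.29, Abcc2 at 0.28 ± 0.26 and Maff at 0.38 ± 0.21. Without control 3 and atorvastatin 3 they were at 0.18, 0.15, -0.01, 0.38, 0.25 and 0.25. Those below 0 were Gstm2 at -0.41 ± 0.26, Sod2 at -0.09 ± 0.26, Tkt, a transketolase, at -0.07 ± 0.23, Cbr3 at -0.40 ± 0.28, Ugt1a6a at -0.06 ± 0.32 and Bach2 at -0.66 ± 0.73. Without the 2 libraries they were at -0.33, -0.19, -0.12, -0.19, -0.11 and -0.19. None of these passed either (edgeR adjusted p 1).

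**Figure D3:**
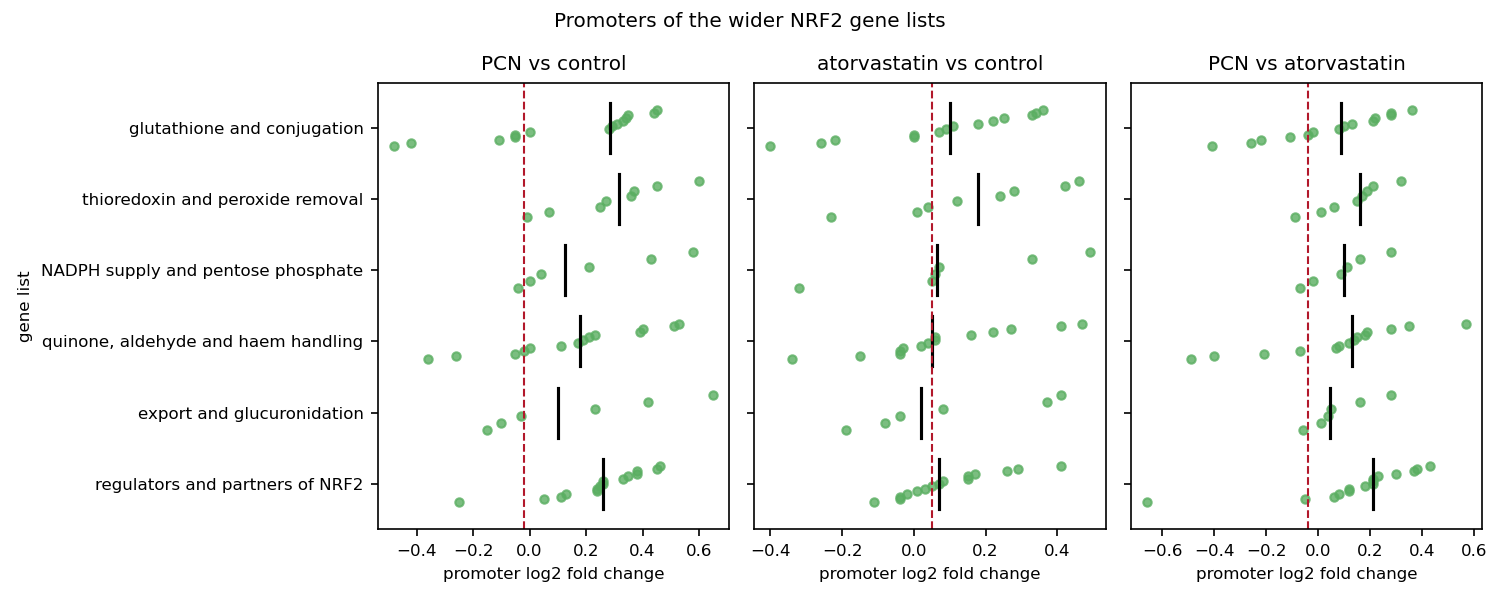
Promoter log2 fold changes (x axis, own scale in each panel) of the 63 genes in 6 lists, each point a gene and each black line the median of its list, with a dashed line at the median of all symbols. For PCN against control the list medians lie between 0.10 and 0.32, against -0.02 for all symbols, and none of the points passed the test. The part of promoter level in these values was not tested.

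Away from promoters, the deposited enhancer table gave 511 regions within 50 kb of the 9 gene bodies, of which 338 in 63 separate loci had enough counts to test. Regions overlap one another and are not independent. Their widths fall into 12 classes, each with its highest mean CPM in a different library. Atorvastatin 3 and control 3 had 0 counts at 27.4% and 68.6% of all regions, against 0.69 to 38% in the others. None of the 338 was called in any comparison, as was none of all 182115 tested regions (0% in each comparison). Unadjusted p was under 0.05 at 7, 6 and 1 of the 338 for PCN against control, atorvastatin against control and PCN against atorvastatin, and at 3511, 4361 and 847 of all regions. DESeq2 called none in any comparison.

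For PCN against control 22 of the 338 regions had all PCN libraries above all controls (6.51%) and 3 below (0.888%), against 3.66% and 0.849% of all regions. Of the 22, 11 lay near Txnrd1, and 7 of these were overlapping regions of 1 locus. These shares therefore rest on fewer loci than regions. For atorvastatin against control 11 were above (3.25%) and 0 below, against 2.1% and 0.672%. For PCN against atorvastatin 5 were above (1.48%) and 0 below, against 1.43% and 0.89%. Fold changes were above 0 at 69.2%, 53.6% and 62.1% of the regions near these genes, against 62%, 58.4% and 55.4% of all regions. The medians near the genes were 0.20, 0.06 and 0.17, against 0.17, 0.12 and 0.06 over all regions, in the same order of comparisons. Without control 3 and atorvastatin 3 the medians were 0.07, 0.09 and 0.01 near the genes, against 0.02, 0.01 and 0 over all regions. The shares above 0 were then 57.4%, 59.5% and 50.6% near the genes, against 51.3%, 50.9% and 50.5% over all.

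For each gene the region with the highest mean CPM was described. Levels are not compared between genes, since these regions belong to width classes that are highest in different libraries. They lay between 0 and 38867 bp from the gene body, and several are nearer to another gene, such as Abca4 for Gclm and Pde4a for Keap1.

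The region near Hmox1 (chromosome 8, 75083946 to 75084084, 9533 bp from the gene body) had 16.8, 14.1, 17 and 19.5 CPM in PCN, 18.6, 14.5, 7.87 and 16.8 in atorvastatin and 24.5, 14, 22.9 and 3.33 in control libraries. The controls spanned all treated libraries. The region near Gclc (chromosome 9, 77750714 to 77750860, 3674 bp away) had 14.3, 14.5, 13 and 11.5 CPM in PCN, 17.8, 13.8, 4.25 and 13.4 in atorvastatin and 25.4, 10.9, 11.9 and 11.4 in control libraries. Control 1 was above every other library there. The region near Txnrd1 (chromosome 10, 82795449 to 82795595, nearest to Hcfc2) had 11.3, 10.2, 10.5 and 8.06 CPM in PCN, 8.91, 11.7, 3.25 and 12.5 in atorvastatin and 7.99, 6.51, 7.02 and 8.55 in control libraries. PCN 4 alone kept the PCN libraries from lying above all controls.

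The most open region at Slc7a11, inside the gene body (chromosome 3, 50381611 to 50381749), had its lowest mean in PCN, as its promoter did. It had 0.636, 1.42, 0.281 and 0.358 CPM in PCN, 2.97, 1.29, 0 and 0.348 in atorvastatin and 4.25, 3.42, 8.37 and 1.9 in control libraries. All PCN libraries were below all controls. The log2 fold change for PCN against control was -2.66 ± 1.00 (edgeR adjusted p 1), and -2.18 without control 3 and atorvastatin 3, but it rests on 1 to 5 counts in PCN and 2 to 16.5 in control libraries. Of the 9 regions chosen by level, this was the one whose groups did not overlap in some comparison.

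**Figure D4:**
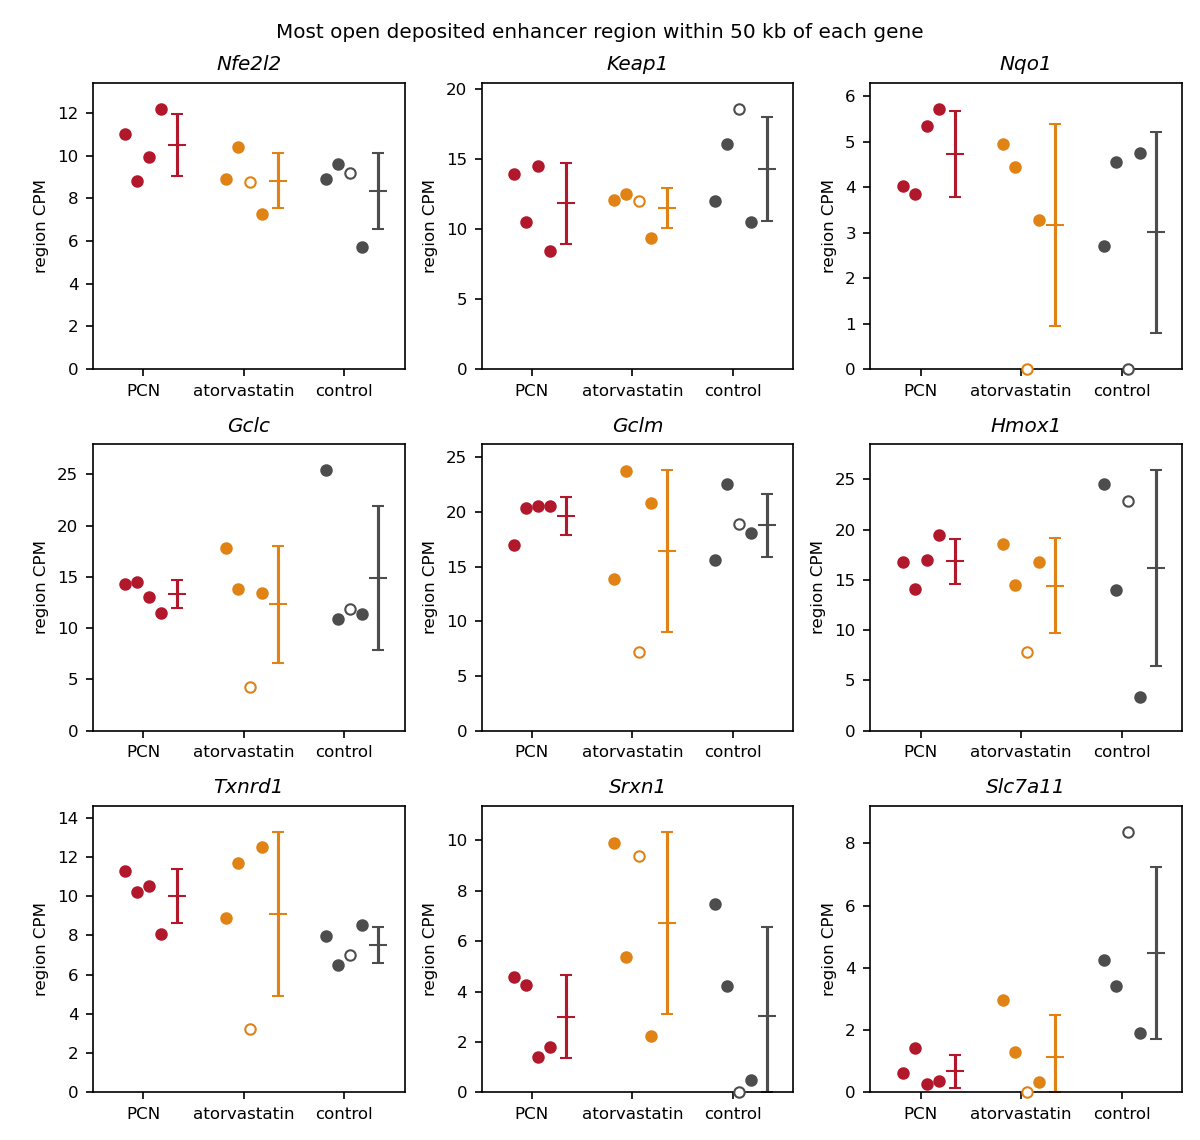
Accessibility in TMM-scaled CPM (y axis, linear from 0) of the most open deposited enhancer region within 50 kb of each of the 9 genes, in PCN, atorvastatin and control libraries, with mean and SD (n = 4 each, lower bar cut at 0). Open circles are atorvastatin 3 and control 3, and the groups overlap except for the low PCN values at Slc7a11, 0.281 to 1.42 CPM against 1.9 to 8.37 CPM in control libraries.

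The following regions were picked with their values in view, for groups that do not overlap, and are given as descriptions. Inside Txnrd1, a locus of 8 tested regions (chromosome 10, 82876502 to 82876733) held 7 in which all PCN libraries lay above all controls, against 3.66% of all regions. The 8 regions overlap and are not independent. Its region at 82876595 to 82876727 had 9.75, 8.97, 7.59 and 12.2 CPM in PCN, 6.19, 6.75, 0.25 and 7.58 in atorvastatin and 2.58, 4.72, 0 and 2.38 in control libraries. These values rest on 31.5 to 46 counts in PCN, 1 to 73 in atorvastatin and 0 to 14.5 in control libraries. PCN against control gave 1.97 ± 0.75 on the log2 scale, and 1.59 without control 3 and atorvastatin 3, with an edgeR adjusted p of 1. The Txnrd1 promoter had 0.31 ± 0.27 in the same comparison, and 0.50 ± 0.22 without control 3 and atorvastatin 3.

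Outside Keap1, 4251 bp from the gene body (chromosome 9, 21225382 to 21225478), a region had 4.56, 5.12, 5.72 and 4.66 CPM in PCN, 5.2, 7.07, 8.12 and 7.44 in atorvastatin and 3.61, 2.93, 0 and 3.33 in control libraries. Both treated groups lay above the controls. Atorvastatin against control gave 1.40 ± 0.63, and 1.02 without atorvastatin 3 and control 3 (edgeR adjusted p 1 with all). The values rest on 13 to 30.5 counts in PCN, 10.5 to 76.5 in atorvastatin and 0 to 14 in control libraries. Of the 5 overlapping regions of this locus, 4 had no overlap in PCN against control and 4 in atorvastatin against control. Of all regions, 3.66% and 2.1% lay above the controls in this way.

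Near Hmox1, but nearest to Tom1, all 5 regions of a locus had atorvastatin above control, against 2.1% of all regions. The 5 regions overlap and are not independent, and the one at 75058860 to 75058992 on chromosome 8 is given. The values were 2.86, 2.7, 1.88 and 4.48 CPM in PCN, 4.95, 3.14, 2.37 and 3.48 in atorvastatin and 2.06, 0.814, 0 and 0.475 in control libraries. PCN 3 alone kept the PCN libraries from lying above all controls too. Atorvastatin against control gave a log2 fold change of 1.98 ± 0.86, and 1.65 without control 3 and atorvastatin 3. The values rest on 9.5 to 13.5 counts in PCN, 9.5 to 34 in atorvastatin and 0 to 8 in control libraries. Inside Nfe2l2 (chromosome 2, 75687464 to 75687646) a region had 0.53, 1.57, 0.563 and 0.179 CPM in PCN, 1.24, 0.878, 16 and 1.11 in atorvastatin and 3.09, 3.26, 2.7 and 4.28 in control libraries. Atorvastatin 1, 2 and 4 also lay below every control. PCN against control gave a log2 fold change of -2.18 ± 1.04. This rests on 0.5 to 5.5 counts in PCN and 4.5 to 12 in control libraries. The region was at 16 CPM in atorvastatin 3, the library in which regions of its width were highest, with 5.04 CPM on average against a median of 0.834 over the others. The edgeR adjusted p was 1 for both, and the part of region width in these values was not tested.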

How the data were processed

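The authors deposited unnormalised expected counts, which move in steps of 0.5, for 43511 promoter rows named by RefSeq transcript and 406518 enhancer regions. The values themselves gave the unit. Trimmomatic, STAR 2.7.9a, bedtools 2.30.0, HOMER 4.10 and mm10 are listed without roles, per the submitters' processing notes. The promoter window and the counting tool are not given in the sources used here, so promoter levels are not ranked between genes.

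Rounded counts were fitted with edgeR 4.0.16 in R 4.3.3 (TMM, quasi-likelihood), promoters and enhancers apart, all 12 libraries together with group as the factor. The function filterByExpr kept rows by its minimum count of 10 per library and minimum total of 15. P-values were adjusted by Benjamini and Hochberg over every row tested, at 0.05. The SE was taken as the size of the log2 fold change divided by the root of F, and 95% intervals are approximate. The prior count was 2 for log2 CPM. Depth is the total count per library. A 0 has a floor of 3 counts, for counting error only. The alternatives comprised other scalings (DESeq2 size factors, totals, loess), no filter, DESeq2 1.42.0, voom with sample weights (limma 3.58.1), a replicate block, 20 kb for enhancers, and fits without libraries. Enhancer positions were handled with GenomicRanges 1.54.1. The fit was also run on simulated counts with planted fold changes. The outcome is not given here, so the smallest change that these libraries could detect is not stated.

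The genes and lists were chosen with earlier results of these data known. Named were all 9 genes, the most open region near each, per list the gene of lowest p on each side of 0, and the 5 promoters most like the mean of the 9. A pravastatin group is not analysed here.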

Additional observations from a re-analysis of the deposited data

Results flagged for a closer look

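Of 54 groups of 4 libraries checked at the promoters and most open enhancer regions of the 9 genes, 3 held a library far from the other 3 by Dixon's criterion, and chance flags about 5% of such groups. At the region near Gclm, PCN 1 had 17 CPM while the next PCN library had 20.4. At the region near Keap1, atorvastatin 4 had 9.39 CPM while the next atorvastatin library had 12. At the region near Gclc, control 1 had 25.4 CPM while the next control library had 11.9.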

How the results depend on the processing

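None of the 27 promoter fold changes passed the threshold under any alternative run. The lowest adjusted p was 0.11, for Txnrd1 in atorvastatin against control (0.53) with the replicate block and without control 3 and atorvastatin 3. Same-numbered libraries did not meet the criterion for pairing, every r of their deviations over 0.1. The r was -0.416 to 0.50 over 12 such pairs and -0.703 to 0.653 for different numbers. It was 0.365 to 0.50 for number 1 and 0.227 to 0.434 for number 4, but -0.093 to 0.095 for number 2, which holds neither library that stood apart. The replicate block by itself called 0 promoters in each comparison. The counts of called promoters for PCN against control, atorvastatin against control and PCN against atorvastatin were 0, 1 and 0 by DESeq2, 268, 171 and 0 by voom with sample weights, 6, 4 and 0 without control 3 and atorvastatin 3, and 124, 57 and 0 with the replicate block and without those 2 libraries, which called 20, 4 and 0 enhancer regions. The cause of these moves was not tested. The same alternatives, run for the wider lists and for the picked enhancer regions, were added after seeing the data. They called none of the 63 genes and turned no sign of a picked region.

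For PCN against control no alternative turned the sign of Nfe2l2, Keap1, Txnrd1, Srxn1 or Slc7a11, but sizes moved. Nfe2l2 was 0.07 and Txnrd1 0.08 with loess offsets, and Keap1 was 0.05 by voom and 0.01 with the block and without the 2 libraries. Signs of small values turned, with the cause not tested. Gclm was -0.02 with DESeq2 size factors, -0.11 by library totals, -0.25 with loess offsets and -0.01 by DESeq2. Hmox1 was -0.10 by totals, -0.04 with loess, -0.26 by voom, -0.25 without the 2 libraries and -0.15 with the block as well. Gclc was -0.12, -0.06 and -0.09 in these last 3 settings, and Nqo1 -0.06 in the last. For atorvastatin against control Hmox1 was -0.01 by totals, and -0.05, -0.10 and -0.14 by voom, without the 2 libraries and with the block as well. In the same 3 settings Nqo1 was -0.10, -0.09 and -0.10, Gclm 0.04, 0.20 and 0.19, and Srxn1 0.12, 0.17 and 0.17. For PCN against atorvastatin Nqo1 was -0.01 with DESeq2 size factors, -0.07 by totals and -0.01 by DESeq2. Gclm was -0.03 by totals, -0.15 with loess, and -0.04, -0.10 and -0.19 in the last 3 settings. Keap1 was -0.03 and -0.12, and Txnrd1 -0.06 and -0.04, without the 2 libraries and with the block as well, and Nfe2l2 -0.03 in the last.

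Leaving out 1 library at a time turned 31 of 324 values, 6 of them without control 3, 5 each without atorvastatin 2 and atorvastatin 3, 4 each without PCN 3 and atorvastatin 1, 3 without atorvastatin 4 and 1 each without PCN 4, control 1, control 2 and control 4. The ranges for PCN against control were -0.08 to 0.40 for Gclc, -0.09 to 0.08 for Gclm and -0.24 to 0.22 for Hmox1. Between atorvastatin and control they were -0.06 to 0.31 for Nfe2l2, -0.34 to 0.13 for Gclc, -0.19 to 0.12 for Gclm, -0.18 to 0.26 for Hmox1, -0.07 to 0.38 for Txnrd1, -0.17 to 0.13 for Srxn1 and -1.07 to 0.55 for Slc7a11. For PCN against atorvastatin they were -0.03 to 0.31 for Keap1, -0.08 to 0.13 for Nqo1, -0.10 to 0.17 for Gclm, -0.21 to 0.09 for Hmox1 and -0.06 to 0.35 for Txnrd1. Control 4 and control 3 had the fewest promoter counts, 1679054 and 2368263.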
